A study of Mus musculus with 4 samples.

Results

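Type 1 conventional dendritic cells marked by Xcr1 and Clec9a were examined in 4T1 tumours, and 102 of them were found among 32133 barcodes that passed the filters on quality (33064 barcodes in all). The cells were selected on measured counts of unique molecular identifiers (UMIs, the tags that let transcript molecules rather than reads be counted). A barcode needed at least 300 genes and at most 15% mitochondrial UMIs, at least 2 UMIs of Xcr1 and Clec9a together and at least 3 UMIs of the class II gene H2-Ab1. It also had to hold no UMI of Cd3d, Cd3g or Siglech, under 0.3% of its UMIs from the C1q genes, and under 0.5% from Col1a1, Col1a2 and Col3a1. These genes are therefore given as a description of the choice and not as a result.

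Conventional dendritic cells take up material in tissues and present peptides from it to T cells. The type 1 branch depends on the transcription factors Irf8 and Batf3 and on Flt3, the receptor for the growth factor Flt3 ligand, and it is known for cross-presentation, the loading of peptides from engulfed cells onto class I molecules that CD8 T cells read. Xcr1 is the receptor for the chemokine Xcl1, which natural killer (NK) cells and activated T cells secrete, and Clec9a is a lectin that binds actin exposed on dead cells. In tumours, type 1 dendritic cells are known for priming CD8 T cells and for secreting Il12 and Cxcl9.

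The tumours were of 4T1 cells, a line from a mouse mammary carcinoma. Female BALB/c mice aged 6 to 8 weeks had received 1000000 of these cells in the right flank, and CD45-positive cells were sorted from them by flow cytometry for 10x Genomics sequencing. By the labels, 2 samples were from mice given PBS on day 7 and 1 from a mouse given TIOs, particles for light-driven lipid peroxidation carried in macrophages that had been treated in liquid nitrogen. A further sample is titled PBS while its protocol names TIOs, and it was left unassigned. All of the mice, those given PBS included, were lit at 980 nm (1.0 W per cm2, 5 min a day) from day 8 to day 10, and tumours were taken on day 13. The cells were deposited as 1 matrix with 4 barcode suffixes, here libraries 1 to 4, that no source links to the samples, so each library is a sample of unknown treatment, no treatment was compared and no test was run.

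Library 1 held 31 of these dendritic cells, which is 0.395% of its 7847 kept barcodes (exact Clopper-Pearson 95% interval 0.269 to 0.560%). Library 2 held 29 of 8614 barcodes, or 0.337% (0.226 to 0.483%). Library 3 held 11 of 6783, or 0.162% (0.0810 to 0.290%), and library 4 held 31 of 8889, or 0.349% (0.237 to 0.495%). The denominators hold barcodes that a CD45 sort would be meant to remove, since all other kept barcodes held the epithelial list at 8078, 893, 5.56 and 2.21 CPM and the fibroblast list at 743, 9582, 6255 and 4897 CPM in libraries 1 to 4. The comparison with all other kept barcodes contains them too. The share was lowest in library 3. Its interval overlapped those of the other libraries, which does not show that the shares are alike. These intervals hold for counting error alone, and say nothing of the spread between animals. The cells were deep, with a median of 16345 UMIs (4316 to 35766) and 3757.5 genes against 5385 UMIs in all kept barcodes, and together they held 1730118 UMIs. A rule that asks for at least 2 UMIs of low genes favours deep barcodes, and classes are therefore compared in CPM, a gene's UMIs per 1000000 UMIs summed over the cells of a class. None of the 102 barcodes occurred in another library, while 196 of the 32133 kept barcodes did.

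The 2 genes of the rule overlapped widely among the cells. UMIs of both Xcr1 and Clec9a were found in 73 cells, of Xcr1 without Clec9a in 15 and of Clec9a without Xcr1 in 14. Xcr1 stood at 386 CPM in library 1, 145 in library 2, 82.9 in library 3 and 164 in library 4, so the level was highest in library 1. Clec9a was more even, at 157, 105, 138 and 140 CPM in libraries 1 to 4. The selected cells held 80.2% of all Xcr1 UMIs and 53.5% of all Clec9a UMIs in the kept barcodes, although they contributed 0.488% of all UMIs. On the reference annotation (GENCODE vM21, GRCm38), Xcr1 lies at chr9:123852315-123862029 on the minus strand and Clec9a at chr6:129408862-129424763 on the plus strand.

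**Figure D1:**
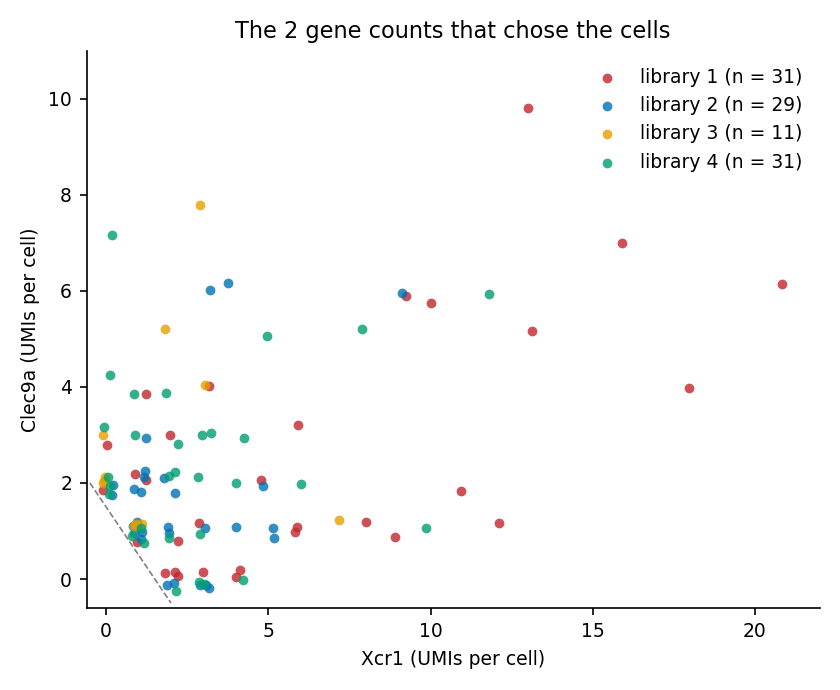
UMIs of Xcr1 (horizontal) and Clec9a (vertical) in each of the 102 cells, coloured by library, with points shifted at random by up to 0.25 UMIs so that they can be told apart. The dashed line runs between sums of 1 and 2 UMIs, the limit of the rule. The cells with most Xcr1, up to 21 UMIs, are from library 1.

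The label was checked against genes that the rule did not use. Flt3 was detected in 88 of the 102 cells (86.3%, 78.0 to 92.3%), Irf8 in 99.0% and Batf3 in 88.2%, and 81 cells held UMIs of all of them. In T cells, which lack Flt3 and Batf3 or hold little of them, Flt3 was found in 0.489% and Batf3 in 1.37% of cells at a median depth of 4070 UMIs. T cells did hold Irf8, at 212, 19.7, 41.8 and 170 CPM in libraries 1 to 4. After each cell was thinned to 1000 UMIs, Flt3 was found in 14.7% of the Xcr1 Clec9a cells and in 0.0990% of T cells. The 27 cells just inside the limit, with a sum of 2 UMIs of Xcr1 and Clec9a, held Naaa at 1381 CPM, Flt3 at 146 CPM and the keratin Krt18 at 340 CPM. Krt18 was at 32.2 and 116 CPM in cells with sums of 3 to 5 and of 6 or more. The 27 include the deepest cell of the set, which held Krt18 at 2936 CPM and so raised the 340 CPM. The 72 barcodes just outside it, with a sum of 1, held Naaa at 494 CPM, Flt3 at 50.01 CPM and Krt18 at 1530 CPM. The 5 barcodes left out for their C1q share were all from library 1 and held Apoe at 8372 CPM and no Flt3 UMI, and no barcode was left out for collagen at that step. The name type 1 dendritic cell fits the leading genes of the set, with the exception of its deepest cell, of 1 cell of library 4 that held no UMI of Flt3, Irf8 or Batf3, and of 1 cell of library 1 that held 35 UMIs of Ccr7 and none of Flt3 or Naaa. The deepest cell, of library 1 with 35766 UMIs, held 105 UMIs of Krt18 and 36 of C1qa but none of Xcr1, Flt3, Batf3, Naaa or Wdfy4.

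Transcription factors of the type 1 branch set these cells apart from Cd209a-positive type 2 dendritic cells (cDC2). The 189 cDC2 were chosen by at least 2 UMIs of Cd209a with H2-Ab1 and without Xcr1, Clec9a or Ccr7. Irf8 was at 2026, 1404, 1285 and 2196 CPM in libraries 1 to 4 of the Xcr1 Clec9a cells. In the cDC2 of libraries 2 to 4 it was at 32.2, 11.5 and 34.1 CPM, and library 1 held only 6 cDC2. The values did not overlap, and the pooled ratio was 53.7 (95% counting interval 42.3 to 69.2). Plasmacytoid dendritic cells (pDC), a type known for high Irf8, held it at 2392 CPM, and NK cells at 1054 CPM. Batf3 was at 155, 200.2, 175 and 249.8 CPM against 63.2, 23.1 and 26.6 CPM in the cDC2 of libraries 2 to 4. Id2, which opposes the E proteins that pDC need, was at 769, 911, 1077 and 1254 CPM, and at 281, 135 and 105 CPM in those cDC2. Flt3 itself was at 93.6, 211, 129 and 151 CPM, a pooled 148 CPM beside 41.6 in cDC2, 143 in mature dendritic cells, 140 in pDC and 0.284 in macrophages. Nfil3 and Zbtb46, the further factors of the list, were at 85.0 and 22.5 CPM.

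A gene was called higher or lower when its CPM differed at least 4-fold after 10 CPM had been added, reached 50 CPM in the higher class, and differed at least 2-fold the same way in every library with at least 10 cells of both classes. A gene that reached 50 CPM in only 1 class could be called in only 1 direction, so counts over marker lists describe the classes and test nothing. Against cDC2, 42 of 3290 genes were called higher (1.28%) and 101 were called lower (3.07%), with genes of the rules left out of the count. Of the 27 genes listed as markers of type 1 dendritic cells, 20 had at least 50 CPM in either class, and 14 of these 20 were called higher and none lower. Some of the 20, such as Gcsam (133 beside 0 CPM) and Itgae (177 beside 2.45 CPM), reached 50 CPM only in the Xcr1 Clec9a cells. These markers were listed because the type is known for them, and their counts are a description and no test of the label.

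Among the surface molecules, Itgae, the integrin chain of CD103, was at 287, 162, 152 and 98.8 CPM in libraries 1 to 4 and at 2.48, 0 and 1.06 CPM in the cDC2 of libraries 2 to 4. The pooled ratio was 72.5 (30.7 to 225). Btla, an inhibitory receptor that binds HVEM, was at 129, 177, 152 and 185 CPM, 20.7 times the level in cDC2 (12.5 to 36.8). Cd24a, a small glycosylated surface protein, was detected in each of the 102 cells and was 6.31 times as high as in cDC2 (5.47 to 7.31), while neutrophils held it at 725 CPM beside 699 here. Cadm1, an adhesion molecule, was at 81.5 CPM pooled but varied from 27.6 CPM in library 3 to 165 in library 1, and pDC held it at 284 CPM. Among other known markers of the type, Ly75, the receptor DEC-205, was at 38.1 CPM beside 0.490 in cDC2 and 172 in mature cells. Cd207 (langerin) and Cd8a had 36 and 22 UMIs over the 102 cells, too few to describe their spread.

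Some genes of the type 1 list act in endosomes or lysosomes. Naaa, a lysosomal amidase that degrades lipid amides, was at 1253, 1897, 1414 and 2045 CPM in libraries 1 to 4, against 259, 108 and 83.1 CPM in the cDC2 of libraries 2 to 4. It was found in 98.0% of the cells and in 4.50% of T cells, and after thinning to 1000 UMIs in 85.3% and 0.396%. Wdfy4, which cross-presentation of cell-associated antigen requires, was at 424, 563, 723 and 619 CPM, 8.35 times the level in cDC2 (6.97 to 10.1). Ppt1, a lysosomal thioesterase, was 8.4 times as high (7.10 to 9.99), and Rab7b, a small GTPase of late endosomes, 11.04 times (8.32 to 14.9). The values of Naaa, Wdfy4 and Ppt1 by library did not overlap between the Xcr1 Clec9a cells and the cDC2 of libraries 2 to 4. Snx22, a sorting nexin, was at 45.8, 99.1, 36.8 and 127 CPM and reached at most 3.85 CPM in the cDC2 of libraries 2 to 4. Other lysosomal genes went the other way. The proteases Ctsa and Ctsd, chosen after their values were seen, were called lower than in cDC2, at 52.6 and 80.3 CPM beside 358.5 and 420.7. Further genes among the 12 with the largest folds were Agpat3, Trim35 and Pla2g16, at 102, 279 and 108 CPM beside 3.92, 26.9 and 6.86 CPM. Pla2g16 was at 217 CPM in library 1 and at 71.7, 50.6 and 61.5 CPM in libraries 2 to 4.

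**Figure D2:**
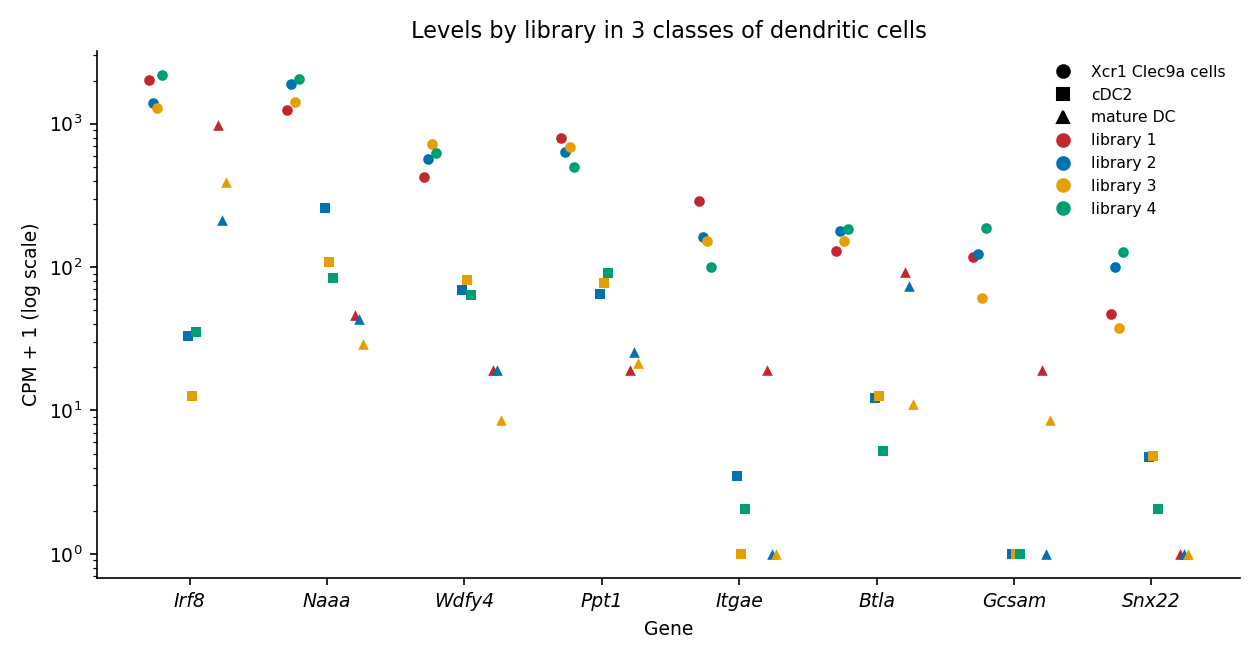
CPM plus 1 on a log axis for 8 genes in the Xcr1 Clec9a cells (circles, 4 libraries), cDC2 (squares, libraries 2 to 4) and mature dendritic cells (triangles, libraries 1 to 3), 1 point per library with at least 10 cells. The circles lie above the squares and triangles for every gene shown, with Btla at 91.2 and 73.2 CPM in the mature cells of libraries 1 and 2 and at least 129 CPM in the circles.

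Gcsam, a signalling protein first described in germinal centre B cells, had the largest part of its UMIs in these cells among genes with at least 50 UMIs, those of the rule left out. It was at 118, 122, 59.9 and 186 CPM in libraries 1 to 4, and 0 UMIs were found in cDC2, which makes it at least 90.5-fold higher (against a floor of 3 UMIs over the 189 cells). The 102 cells held 58.8% of all 391 Gcsam UMIs of the kept barcodes. Further genes concentrated in these cells were Tlr11 (56.9%), a sensor of a protozoan profilin, Hepacam2 (54.0%), Sept3 (45.2%), a septin, Ffar4 (43.4%), a receptor for long-chain fatty acids, and Btla (34.3%). Tlr11 had 58 UMIs in 42 of the cells, and 0 UMIs in cDC2, macrophages, T cells, NK cells and neutrophils. Tlr3, the endosomal sensor of double-stranded RNA, was at 83.7, 52.7, 18.4 and 72.7 CPM and at 2.94 CPM in cDC2.

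**Figure D3:**
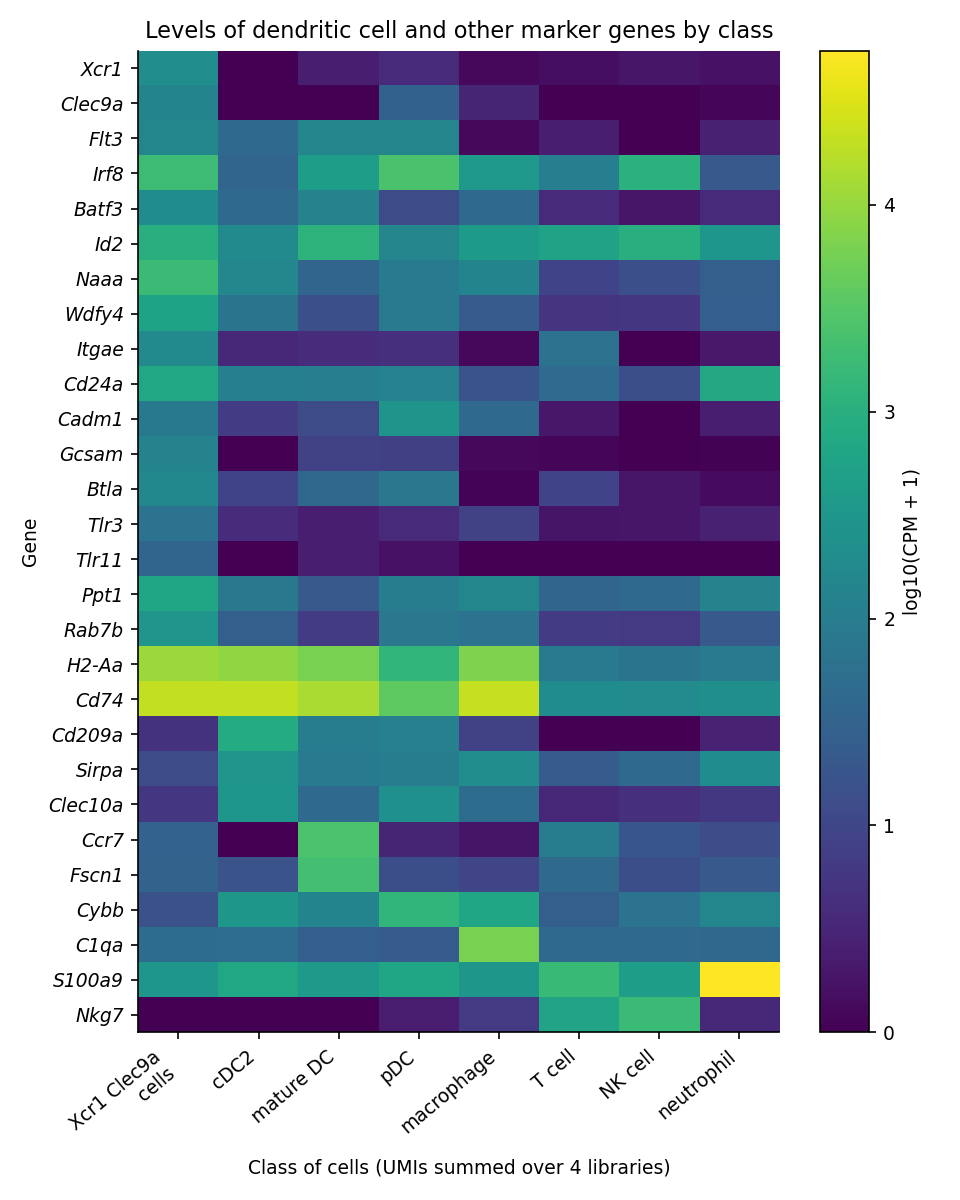
Colour gives log10(CPM + 1) of 28 genes (rows) in the Xcr1 Clec9a cells and 7 other classes (columns), from UMIs summed over the 4 libraries. Gcsam, Tlr11, Itgae and Naaa are brightest in the first column, Irf8 is as bright in pDC, and Cd74 is bright in each antigen-presenting class.

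Of 9 measured genes on the cDC2 list, 6 were called lower and none higher, namely Sirpa, Itgam, Clec10a, Mgl2, Clec4a2 and Tnip3. Sirpa, the receptor that reads CD47, was at most 13.05 CPM in any library of the Xcr1 Clec9a cells, beside 328, 223 and 288 CPM in the cDC2 of libraries 2 to 4. S100a4, a calcium-binding protein, was at 45.8, 23.2, 32.2 and 95.1 CPM against 1281, 1869 and 1906 CPM. Cd209d, a lectin, had 0 UMIs in the Xcr1 Clec9a cells and was at 326 CPM in cDC2, so it was at least 188-fold lower. Dmkn, which encodes dermokine, was at 4.05 CPM beside 498, with 244, 419 and 753 CPM in the cDC2 of libraries 2 to 4. Of 10 measured macrophage and monocyte genes, 7 were called lower and none higher, among them Csf1r, a growth factor receptor (8.09 beside 210.1 CPM), and the lysozyme gene Lyz2 (428 beside 2558 CPM). The chemokine receptor Ccr2 was at 179 CPM beside 685 and was not called. Klf4, a transcription factor on the cDC2 list, was at 179, 198 and 112 CPM in libraries 2 to 4, beside 374, 219 and 131 CPM in the cDC2 of those libraries, and at 556 CPM in library 1, and was not called.

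A total of 58 mature dendritic cells were chosen by at least 3 UMIs of Ccr7 and Ccl22 together with Fscn1 and H2-Ab1 and without the rule's Xcr1 Clec9a cells. Against them, 68 of 3271 genes were called higher (2.08%) and 116 were called lower (3.55%), and without library 1 the second count was 181. Of 22 measured genes on the type 1 list, 12 were called higher and none lower. Some of the 22, such as Itgae (177 beside 2.92 CPM) and Snx22 (84.4 beside 0 CPM), reached 50 CPM only in the Xcr1 Clec9a cells. Naaa was at 1695 CPM beside 33.6 (50.4-fold, 33.5 to 79.7), and Wdfy4 at 560.1 beside 13.2 (42.6-fold, 22.3 to 93.4). Mpeg1, a pore-forming protein of phagosomes, was at 747 CPM beside 40.9. Flt3, Batf3 and Id2 were not called. Flt3 was at 109, 159 and 142 CPM in the mature cells of libraries 1 to 3 and Batf3 at 155, 134 and 129 CPM, against 93.6, 211 and 129 CPM and 155, 200.2 and 175 CPM in the Xcr1 Clec9a cells. Id2 was at 392, 793 and 1597 CPM in the mature cells, below the Xcr1 Clec9a cells in libraries 1 and 2 and above them in library 3. Btla was 4.27 times as high (2.86 to 6.66) and was not called, with 91.2, 73.2 and 10.1 CPM in the mature cells of libraries 1 to 3.

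In the other direction, 7 of 14 measured genes on the list of dendritic cell maturation were called lower (Ccl17, Il4i1, Socs2, Cd200, Cacnb3, Marcksl1 and Relb) and none higher. Genes of that list can reach 50 CPM through the mature cells alone. Ccl5, a chemokine for T cells that is not on that list, was at 53.8, 59.0, 9.21 and 5.59 CPM in the Xcr1 Clec9a cells and at 675, 512 and 6024 CPM in the mature cells of libraries 1 to 3. Il4i1, an amino acid oxidase, was at 2.31 CPM beside 596. Outside the list, Tnfrsf9, the costimulatory receptor 4-1BB, was at 4.62 CPM beside 708. Fabp5, a fatty acid carrier, was at 76.3 CPM beside 2133. Cd86 and Cd83, costimulatory and maturation-linked surface proteins that are also used outside mature cells, were at 142 and 428 CPM beside 184 and 811, and were not called, and Cd86 was higher in library 3 of the Xcr1 Clec9a cells (138 beside 127 CPM).

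**Figure D4:**
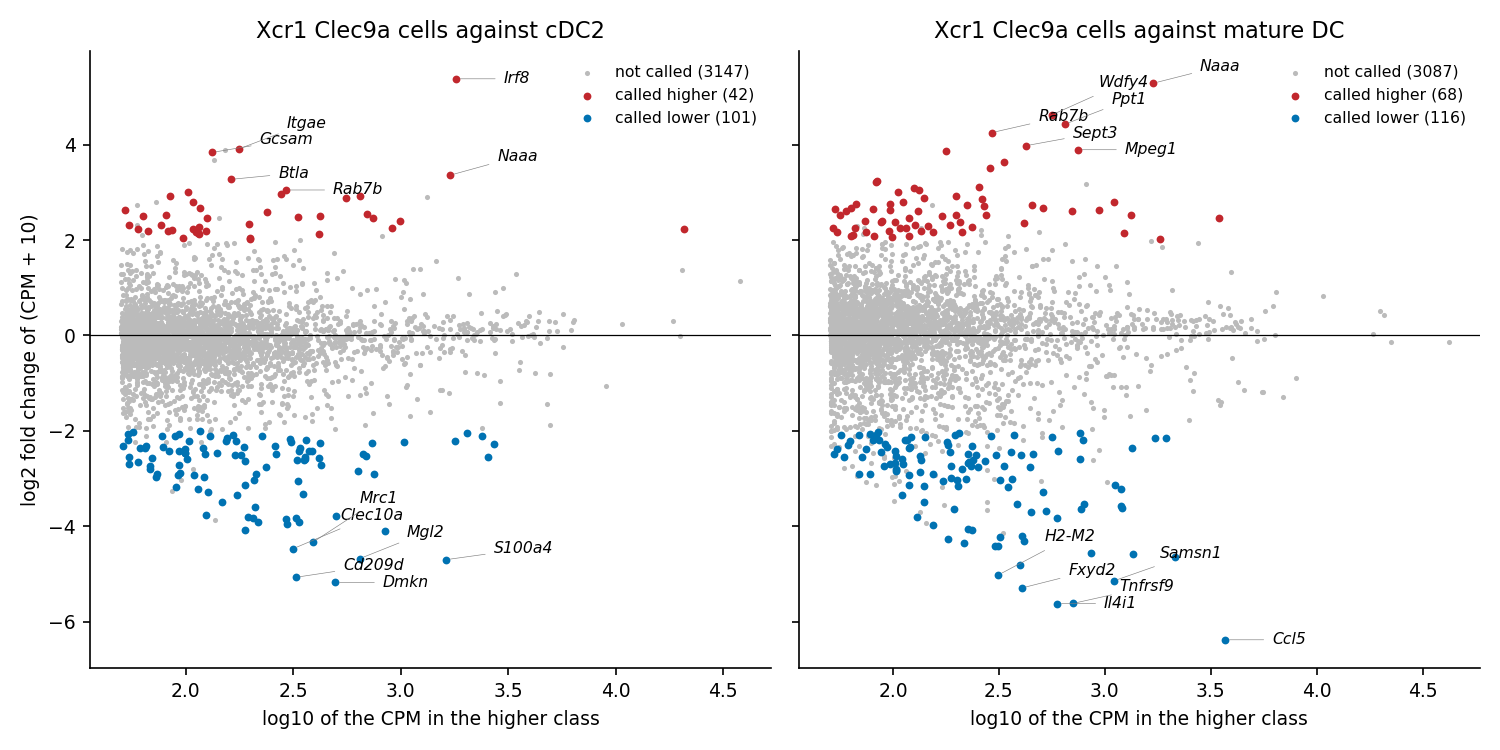
Each point is a gene with at least 50 CPM in either class, placed by log10 of its CPM in the higher class and by the log2 fold change of CPM plus 10 in the Xcr1 Clec9a cells over cDC2 (left) or mature dendritic cells (right). Red and blue points were called higher and lower, 42 and 101 on the left and 68 and 116 on the right, and the 6 largest in each direction are named.

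None of 11 measured class II genes was called in either direction against cDC2 or mature cells, while 8 were called higher and Lgmn, a lysosomal protease, lower than in all other kept barcodes (110 of 3640 genes, 3.02%, were called higher there and 273, 7.5%, lower, or 494 lower without library 1). The Xcr1 Clec9a cells, cDC2 and mature cells were all chosen with at least 3 UMIs of H2-Ab1, and the other barcodes were not. These class II counts therefore follow in part from the choice of cells. H2-Aa was at 9606, 10033, 13394 and 11301 CPM in libraries 1 to 4, 10724 CPM pooled beside 9029 in cDC2, and was lowest in library 1. Cd74, the invariant chain, was at 19952 CPM beside 19970.2. H2-Oa and H2-Ob form the complex that inhibits peptide loading by H2-DM, and stood at 63.6 and 45.7 CPM, 2.65 (1.88 to 3.79) and 3.01 times (1.96 to 4.72) the levels in cDC2. Ciita, the master regulator of these genes, was at 199.99 CPM beside 125 CPM in cDC2.

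Of 18 measured class I and cross-presentation genes, 1 was called higher and 1 lower than in cDC2, and of 17 measured against mature cells none was called higher and 1 lower. Psmb9, an immunoproteasome subunit, was at 1038, 948, 797 and 807 CPM in libraries 1 to 4 and at 135, 158 and 230.0 CPM in the cDC2 of libraries 2 to 4, a ratio of 4.99 (4.45 to 5.6). It was the gene called higher than in cDC2, and stood at 474 CPM in mature cells. Psmb8 and the peptide transporter Tap1 were at 1455 and 295 CPM beside 487 and 90.6 in cDC2, and did not reach 4-fold. Cybb, a subunit of the phagosomal NADPH oxidase, was called lower in both comparisons, at 13.9 CPM beside 327 in cDC2 and 136 in mature cells. The heavy chain H2-K1 was at 2114 CPM in library 1 and at 674, 723 and 869 CPM in libraries 2 to 4. The same gene was at 2864 CPM in the T cells of library 1 and at 1156 to 2005 CPM in those of the other libraries. In all kept barcodes it was at 2426 CPM in library 1 and at 723 to 949 CPM elsewhere.

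Il12b, a chain of IL-12, was found in 3 of the 102 cells, all in library 1 (54 UMIs, 108 CPM there), and Il12a had 0 UMIs. Cxcl9, which attracts T cells through Cxcr3, was at 504 CPM in library 1 and at 19.0, 4.6 and 3.73 CPM in libraries 2 to 4, with UMIs in 30 of the 102 cells and 23.7% of the library 1 UMIs in 1 cell. It was at 432 CPM in the macrophages of library 1, and no cDC2 of libraries 2 to 4 held a UMI. Cxcl10 was at 321, 348, 143 and 67.1 CPM and Cxcl16 at 323, 114, 106 and 65.2 CPM, and neither was called against cDC2. In the cDC2 of libraries 2 to 4 Cxcl10 was at 159, 92.3 and 289 CPM and Cxcl16 at 191, 84.6 and 41.5 CPM, so the direction of the difference varied with the library for both. Ifnb1 was found in 6 cells, and 48.4% of its 31 UMIs were in 1 cell. Ccl4 and Il1b were at 1646 and 1085 CPM, beside 9260 and 13354 CPM in neutrophils, and the part of RNA freed from neutrophils in these values was not tested.

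Cxcr3, the receptor for Cxcl9 and Cxcl10, was at 17.9, 48.5, 23.0 and 44.7 CPM and had 0 UMIs in cDC2 and in mature cells. Kit was at 38.1 CPM beside 7.35 in cDC2, and Havcr2, the receptor Tim-3, at 87.3 beside 22.5 in cDC2 and 8.77 in mature cells, called higher than the mature cells. Ccr1 was called lower than in cDC2, at 10.98 CPM beside 98.9. Of the uptake receptors measured against cDC2, Lrp1, Mrc1, Fcgr3 and Fcer1g were called lower and none of the 8 higher. Xcl1, the ligand of Xcr1, had 1 UMI in these cells, while NK cells and T cells held 32.0% and 29.9% of its UMIs, at 688 and 120 CPM. In NK cells Xcl1 was at 1585 CPM in library 1 and at 730.3, 733 and 377 CPM in libraries 2 to 4, and library 2 held only 8 NK cells. In T cells Xcl1 was at 381 CPM in library 1 and at 1.04, 6.68 and 87.1 CPM in libraries 2 to 4. Flt3l, the ligand of Flt3, was at 44.5 CPM in NK cells, 33.6 in T cells and 6.36 in the Xcr1 Clec9a cells.

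Genes of the cell cycle were present in a part of the cells. UMIs of at least 3 of 15 cycling genes were found in 68 cells (66.7%, 56.6 to 75.7%) and of both Mki67 and Top2a in 18. Depth adds to such counts, so each cell was also thinned to 4000 UMIs, a choice made after the data were seen. The share was then 30.4% in the Xcr1 Clec9a cells (31 of 102, 21.7 to 40.3%), 10.6% in cDC2 (6.51 to 16.1%), 10.9% in mature cells (4.11 to 22.2%), 31.5% in macrophages and 42.0% in T cells, with 10 cDC2, 3 mature cells, 212 macrophages and 495 T cells left out as too shallow. Thinning evens out detection, but it does not undo the preference of the rule for deep barcodes. The summed level of the list was 2022, 1966, 1262 and 1105 CPM in libraries 1 to 4, against 677, 984 and 359 CPM in the cDC2 of libraries 2 to 4. None of the 9 measured cycling genes was called against cDC2. Genes can reach 50 CPM through the Xcr1 Clec9a cells alone, so the signs of these fold changes were not read.

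Cells with several maturation genes were also counted. At least 3 of the 20 genes on the maturation list were found in 92 of the 102 cells, and Cd83 was found in 88. At least 3 of 8 maturation genes (Ccr7, Fscn1, Ccl22, Ccl17, Il4i1, Cacnb3, Socs2, Cd200) were found in 6 of the 102 cells, 4 of them in library 1, and in 0 of the 31 cells of library 4. A single cell of library 1 with 9113 UMIs held 35 Ccr7, 30 Fscn1, 33 Ccl22 and 12 Il12b UMIs together with 3 of Xcr1 and none of Flt3. Its counts also met the marker limits set for mature dendritic cells, a class from which the Xcr1 Clec9a cells were left out. Another, with 12607 UMIs, held 45 of the 51 Ccl17 UMIs. These 8 genes chose the 6 cells, so their levels in them are a description. The 6 cells held 6.11% of the UMIs of all genes. Of genes not among the 8, Cxcl9 had 36.2% of its UMIs in them, Cd40 25.9%, Cd274 23.2%, Il12b 22.2% and Cd83 10.1%, and 60 of the 96 Cxcl9 UMIs and all 12 of Il12b were in 1 cell each. The 4 of the 6 in library 1, where Cxcl9 was highest, held 60, 6, 28 and 1 of its 253 Cxcl9 UMIs. Those of libraries 2 and 3 held 1 and 0, and the part of maturation in the Cxcl9 level of library 1 was not tested.

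The 4 libraries differed most by library 1. Of 2704 genes with at least 50 CPM in the cells, 71 (2.63%) were at least 2-fold above each other library in library 1, against 6 (0.222%) in library 2, 11 (0.407%) in library 3 and 17 (0.629%) in library 4. This count was added after the data were seen. In library 1, Iigp1, an interferon-inducible GTPase, was at 245 CPM and at 4.22, 0 and 1.86 CPM in the others, and Serpina3g, a serpin, was at 199 CPM and at most 3.73 CPM in the others. Single cells held a large part of some of these UMIs in library 1, namely 29.3% for Iigp1, 38.0% for Serpina3g, 43.0% for Krt18, 70.9% for Slpi and 71.8% for Hbegf, so the count of 71 includes genes with most of their UMIs in 1 cell. Serpinb6b and Actn1 were at 460.2 and 247 CPM in library 1 and at most 18.4 and 26.1 CPM in the others. Of the 71 genes, 17 were also at least 2-fold above each other library in the T cells of library 1 (23.9%), Krt18, Krt8, Wfdc2, Cxcl9 and Serpina3g among them, beside 43 of all 2704 genes (1.59%). T cells of library 1 held Ifng, which encodes interferon gamma, at 750 CPM, and those of libraries 2 to 4 at 16.6, 22.3 and 111 CPM, and its part in these values was not tested. The 6 genes of library 2 were Cxcl2 and S100a9, which neutrophils use (1252 and 712 CPM, with 45.9% of the S100a9 UMIs in 1 cell), Rrm2 and Pclaf, which serve DNA synthesis (143 and 285 CPM), Saa3 and Mxd1. The 11 of library 3 included Csf2rb, a receptor chain for GM-CSF, at 774 CPM beside 129 to 278 CPM. The 17 of library 4 included Ifi27l2a, Slfn5 and Tmem173, the last of which encodes the sensor STING, at 1417, 526 and 218 CPM.

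Markers of other cell types moved with the library. The 8 epithelial genes, which 4T1 tumour cells use, summed to 1448 CPM in library 1 and to 42.2, 0 and 9.32 CPM in libraries 2 to 4, with Krt18 the most abundant at 486 CPM in library 1. Each of the 31 cells of library 1 held at least 1 such UMI, and without the deepest cell the sum was 944 CPM. Neutrophils of library 1, which do not make keratins, carried the same list at 1236 CPM and its T cells at 988 CPM. The part of this RNA in the other library 1 values was not tested. The neutrophil list summed to 270.9, 1029, 460.4 and 300.1 CPM in libraries 1 to 4, with S100a9 the most abundant and none of its 8 genes at 0. The macrophage and monocyte list summed to 701, 826, 764 and 1152 CPM, led by Lyz2, with Mertk at 0. Fibroblast genes summed to 106, 373, 212 and 257 CPM, led by Sparc. Genes of T cells and NK cells were near 0. The rule had left out barcodes with a UMI of Cd3d or Cd3g, so the low T cell list follows in part from the choice. The T cell list summed to 5.98, 19.0, 4.6 and 16.8 CPM (Cd28 at 0), and the NK list to 0, 6.32, 0 and 9.32 CPM, with Ncr1, Klrb1c, Nkg7, Prf1 and Eomes at 0. On the B cell list Ighm was at 101 CPM in 65.7% of the cells, while Cd79a was at 0 and pDC held Ighm at 837 CPM. The list of mast cells and basophils had 1 UMI, of Mcpt8, and the endothelial list summed to 20.2 CPM, led by Kdr.

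**Figure D5:**
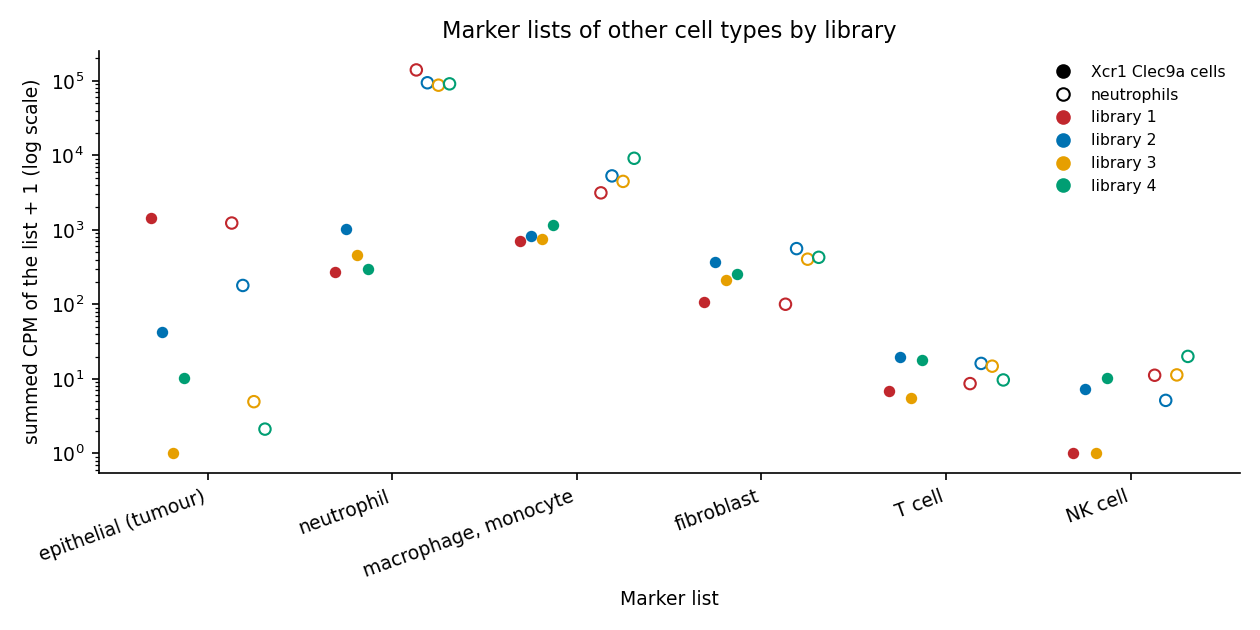
Summed CPM plus 1 (log axis) of 6 marker lists in the Xcr1 Clec9a cells (filled) and in neutrophils (open), 1 point per library. Epithelial markers are at 1448 and 1236 CPM in the 2 classes of library 1 and at most 179 CPM in the other libraries, while the T cell and NK cell lists stay below 21 CPM in both. Both classes were chosen without UMIs of Cd3d or Cd3g.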

How the data were processed

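The authors deposited 1 matrix of UMI counts (55450 genes, 33064 barcodes, 355765099 UMIs, 69255999 to 108646352 per library), not scaled per cell, with deposited lists of barcode and gene names. It was made with Cell Ranger (3.0.2 in the series' methods, 2.1.1 in the submitters' processing notes, 6.1.2 in the matrix header) on mm10. The study states 15603 cells after its filter, while the same limits leave 32133 barcodes here. Counts were summed by gene symbol per class (Python 3.11.15, numpy 2.4.6, scipy 1.17.1, pandas 2.3.3) and given as CPM. Ratios of summed counts carry exact conditional intervals for Poisson rates and shares exact binomial 95% intervals, for counting error only, since cells of 1 library are not independent samples. Other classes were set by thresholds on marker counts. No doublet caller was run, and 0 of the 102 cells lay above the 95th percentile of UMIs of their library. Members and lists were chosen with earlier results of these data known. Named genes were all 301 genes of 25 lists, 1 of them matched by a newer symbol, and the 12 called genes with the largest folds per comparison and direction. Genes with the largest differences between libraries, and those with most of their UMIs in the cells, were named after their values were seen. All gene identifiers were found in GENCODE vM21 (GRCm38), which gave the positions.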

Additional observations from a re-analysis of the deposited data

How the results depend on the processing

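The share of Xcr1 Clec9a cells was 0.317% of kept barcodes. It was 0.541% with a limit of 1 UMI of Xcr1 and Clec9a, 0.233% with 3, 0.227% with both genes required and 0.0249% (8 cells, too few for folds) without cells that held 3 genes of another lineage, and 0.292 to 0.359% when each library was left out in turn. A limit of 1 UMI gave 26, 39 and 68 genes called higher than in cDC2, mature cells and all other barcodes, in place of 42, 68 and 110. A pseudocount of 50 CPM gave 13, 19 and 41, and for lower genes 32, 39 and 51 in place of 101, 116 and 273. A pseudocount of 1 CPM gave 103 genes higher than in mature cells and 422 lower than in all other barcodes. Thinning to 1000 UMIs gave 43, 113 and 71 genes called higher, and kept 22 of the 42, 35 of the 68 and 56 of the 110. A limit of 1 UMI gave 61 and 96 genes lower than in cDC2 and all other barcodes. Leaving out each library in turn gave 42 to 45, 68 to 96 and 107 to 143 genes called higher, and without library 1 the lower genes were 181 against mature cells and 494 against all other barcodes. The other alternatives (H2-Ab1, C1q, gene and mitochondrial limits, a minimum of 10 CPM, scaling per cell, removal of deep barcodes and, added after the data were seen, of the 6 cells with maturation genes or of the deepest cell) kept these counts within 1.5 times. Similar counts can hold different genes. Scaling per cell kept 35 of the 42, 62 of the 68 and 74 of the 110 higher genes, and 172 of the 273 lower than in all other barcodes. Causes were not tested. No paired analysis was possible because the barcode suffixes are not linked to the samples. With 11 cells in library 3, low genes there rest on few UMIs.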

Other observations

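Interferon-stimulated genes were present at moderate levels in the Xcr1 Clec9a cells. The 16 genes of the list summed to 1747, 1756, 1285 and 2293 CPM in libraries 1 to 4, beside 755, 1004 and 1980 CPM in the cDC2 of libraries 2 to 4, and both classes were highest in library 4. None of 9 measured genes was called against cDC2. Irf7, a transcription factor of the interferon response, was at 273, 333, 520.3 and 703 CPM, and Rsad2, an antiviral enzyme, at 308 CPM in library 2 and 13.8 CPM in library 3. Of the nucleic acid sensors, Tmem173 was at 113 CPM, Cgas at 19.7 CPM and Tlr7 had 1 UMI, while pDC held Tlr7 at 80.1 CPM.

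Of 5 measured genes on a list of checkpoint and costimulatory ligands, none was called higher than in cDC2 and Tnfsf9 was called lower. Cd48, a ligand of Cd244, was called higher than in all other kept barcodes, at 146 CPM beside 25.4, but cDC2 held it at 161 CPM. Cd274, the ligand PD-L1, was at 116, 52.7, 50.6 and 9.32 CPM in libraries 1 to 4, lowest in library 4, and at 235 CPM in mature cells and 335 in neutrophils. Ido1 had 1 UMI, Cd70 and Fasl had 0, and Ifng had 1. Klrk1, which encodes the receptor NKG2D, was at 53.2 CPM in 52.9% of the cells, beside 44.6 CPM in cDC2 and 369 in NK cells.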
